A study of Mus musculus with 3 samples.

Results

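The genes described here are 41 listed genes of the type I interferon response, followed in CD4+ T cells from the kidney and spleen of lupus-prone MRL/lpr mice. They were chosen by symbol, without use of their measured values. Of the 41 symbols, 40 were found among the 32285 gene rows of the deposited matrices, and Mx1 was not analysed here. Sorted CD4+ T cells of each organ and mouse carried their own antibody tag and were pooled for droplet sequencing, which captured the 5′ ends of transcripts in single cells. A pair of genotypes was set against each other, named as in the deposited tag key. KO mice were homozygous for a loxP-flanked Ezh2 and carried Cre fused to the ERT2 receptor under the Cd4 promoter (iCD4-Cre Ezh2fl/fl). WT mice carried the same Ezh2fl/fl alleles without Cre. Ezh2 encodes the histone methyltransferase of Polycomb repressive complex 2. Both genotypes had the MRL/lpr background (the Cre parent reached 99.8% of it after 6 generations of backcrossing). Both received tamoxifen by gavage at 300 mg/kg from 10 weeks of age (preventative) or 14 weeks (therapeutic) until 24 weeks, with the start given to a particular mouse not stated in the labels. Cells of 9 Cre and 10 floxed mice were sorted, per the labels. The cells of 2 KO mice (KO1 and KO2) and 3 WT mice (WT1, WT2 and WT3), all of the first day in the tag key, could be assigned, and each of these 5 mice gave both organs. Cre under the Cd4 promoter is active in T cells, and whether each sorted cell had lost Ezh2 was not measured.

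Type I interferons bind a receptor built from Ifnar1 and Ifnar2. The kinases Jak1 and Tyk2 then phosphorylate STAT proteins, Stat2 among them, which join Irf9 and bind interferon-stimulated response elements in the promoters of antiviral genes. In lupus these genes are often raised in blood and affected tissue, and many of them also respond to interferon gamma, which has a receptor of its own.

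The first-day cells numbered 4979 in kidney and 8358 in spleen after filtering. The kidney sums held 717 and 219 cells in KO1 and KO2 and 1629, 1467 and 947 in WT1, WT2 and WT3. The spleen sums held 1324 and 1580 cells in KO1 and KO2 and 2386, 922 and 2146 in WT1, WT2 and WT3. A unique molecular identifier (UMI) marks a single captured transcript. Counts were summed per mouse and organ, and totals lay between 900068 UMIs in kidney KO2 and 10102765 in spleen WT1. In such sums, fewer cells of a type and less RNA per cell cannot be told apart. The CD4 T cell markers Cd3e, Cd3g, Cd4, Trac and Cd5 summed to 2455 to 3261 CPM (counts-per-million, of all UMIs of the sum) in kidney and 2880 to 3912 CPM in spleen. Ezh2 stood at 75.6 and 59.7 CPM in KO kidneys against 89.8, 159 and 138 CPM in WT kidneys, and at 51.3 and 53.4 CPM in KO spleens against 69.5, 172 and 152 CPM in WT spleens. It was lower in every KO mouse, and neither difference passed the test over all genes (edgeR quasi-likelihood, adjusted p = 0.467 in kidney and 0.192 in spleen). The floxed exons are not named in the labels, and 5′ counts read the transcript's start, so this is a limited check of the deletion. WT1 stood apart from WT2 and WT3. Cells with at least 2 UMIs of the naive markers (7 genes, Ccr7 and Lef1 among them) made up 58.7% and 59.8% of KO kidney cells and 43.1%, 15.7% and 18.6% of WT kidney cells. In spleen they made up 72.7% and 62.9% of KO cells and 40.5%, 18.2% and 22.9% of WT cells.

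Promoters of the listed genes are shown because the response element is the sequence through which the pathway acts. RefSeq windows (GRCm38.p6) of 300 bases, from 250 before to 50 after a start site, were found for 32 of the 40 genes. The core of the response element was taken as GAAA, then any 2 bases, then GAAA, searched on both strands with overlaps allowed. It occurred in 18 of the 32 genes (56.2%), against 3.99% of the 27025 genes with a window. The letters TTCNNNGAA, the core of the gamma-activated site, read alike on both strands and occurred in 8 of the 32 genes (25.0%), against 9.55% of all genes. A match describes letters and is not a measured binding site. The windows below are those of the 4 genes with the most UMIs among those that hold this core, then of 2 without it that differed between organs. Each is printed 5′ to 3′ on the gene's strand, with matches to the core in capitals, and overlapping matches share letters.
Bst2, chr8:71537423-71537722, minus strand: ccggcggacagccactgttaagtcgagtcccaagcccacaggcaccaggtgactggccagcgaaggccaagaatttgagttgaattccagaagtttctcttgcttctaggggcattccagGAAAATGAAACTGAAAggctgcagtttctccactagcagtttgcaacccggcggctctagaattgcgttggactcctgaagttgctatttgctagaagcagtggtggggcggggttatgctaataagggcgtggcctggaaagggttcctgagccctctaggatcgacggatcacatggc
Isg15, chr4:156200769-156201068, minus strand: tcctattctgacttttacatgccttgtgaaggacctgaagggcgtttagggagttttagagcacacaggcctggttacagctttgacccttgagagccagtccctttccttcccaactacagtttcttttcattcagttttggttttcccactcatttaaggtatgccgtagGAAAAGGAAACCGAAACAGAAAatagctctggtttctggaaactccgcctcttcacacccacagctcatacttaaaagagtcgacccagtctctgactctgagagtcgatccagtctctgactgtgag
Ifi203, chr1:173942443-173942742, minus strand: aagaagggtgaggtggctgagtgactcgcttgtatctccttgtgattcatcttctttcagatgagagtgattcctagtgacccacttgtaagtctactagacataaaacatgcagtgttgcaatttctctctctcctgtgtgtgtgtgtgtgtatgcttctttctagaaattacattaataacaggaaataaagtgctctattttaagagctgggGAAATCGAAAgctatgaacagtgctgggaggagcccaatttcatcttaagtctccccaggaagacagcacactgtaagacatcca
Ifitm2, chr7:140955912-140956211, minus strand: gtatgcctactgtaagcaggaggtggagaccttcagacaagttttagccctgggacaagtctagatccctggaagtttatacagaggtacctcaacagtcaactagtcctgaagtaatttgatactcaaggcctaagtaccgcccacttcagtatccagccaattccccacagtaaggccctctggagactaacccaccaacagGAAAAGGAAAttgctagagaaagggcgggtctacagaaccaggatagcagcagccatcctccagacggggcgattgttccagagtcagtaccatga
Irf7, chr7:141266375-141266674, minus strand: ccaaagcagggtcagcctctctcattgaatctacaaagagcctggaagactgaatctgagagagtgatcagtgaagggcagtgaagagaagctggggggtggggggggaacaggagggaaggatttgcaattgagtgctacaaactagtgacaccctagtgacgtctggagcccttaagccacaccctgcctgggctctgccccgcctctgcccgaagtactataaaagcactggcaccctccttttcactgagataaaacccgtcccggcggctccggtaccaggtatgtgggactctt
Ifitm1, chr7:140967826-140968125, plus strand: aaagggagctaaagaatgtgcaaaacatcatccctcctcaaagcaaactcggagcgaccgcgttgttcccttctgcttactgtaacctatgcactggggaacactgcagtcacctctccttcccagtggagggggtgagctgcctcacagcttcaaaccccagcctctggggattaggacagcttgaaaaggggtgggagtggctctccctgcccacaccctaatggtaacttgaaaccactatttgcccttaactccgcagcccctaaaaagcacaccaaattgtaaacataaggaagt
Isg15 held 3 overlapping matches that begin 78 to 66 bases before the start site, and Bst2 held 2 that begin 130 and 124 bases before it. Ifi203 held 1 match 35 bases before the start of the second of its windows, and Ifitm2 held 1 at 46 bases. Irf7 and Ifitm1 held none within these windows. Among the genes that differed between organs, Isg15 and Ifitm3 (higher in kidney) and Trim21, Ifi203 and Trim30a (lower in kidney) held the core, while Irf7, Ifitm1 and Irf1 did not. Oas2, Usp18, Ifi204, Dhx58, Rtp4, Zbp1, Parp14 and Parp9 had no window in the table.

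The first comparison set kidney against spleen over both genotypes. The interferon genes did not move together. Of 37 genes that passed the filter on low counts, 10 passed the test, 4 higher in kidney (Ifitm1, Ifitm3, Irf7 and Isg15) and 6 lower (Trim21, Irf1, Usp18, Parp9, Ifi203 and Trim30a). The share called was 27.0%, close to the 21.7% of all 12072 genes tested, so the total count does not set these genes apart. By direction, 10.8% were called higher in kidney (against 12.1% of all genes) and 16.2% lower (against 9.64%). The median log2 fold change of the 37 genes was -0.11, against -0.04 over all genes tested. Oasl1, Oasl2 and Oas2 were too low to test, at 0 to 2.97 CPM in every sum. The test was edgeR's quasi-likelihood fit on the 10 sums, with genotype as a covariate and Benjamini-Hochberg adjustment over all genes. CPM values of single genes are given after TMM scaling. The matrices hold 5′ tags that are not divided by length, so no gene's level is set against another's. Kidney was digested with enzymes at 37 °C and spleen was pressed through a strainer, so organ and preparation cannot be told apart.

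**Figure D1:**
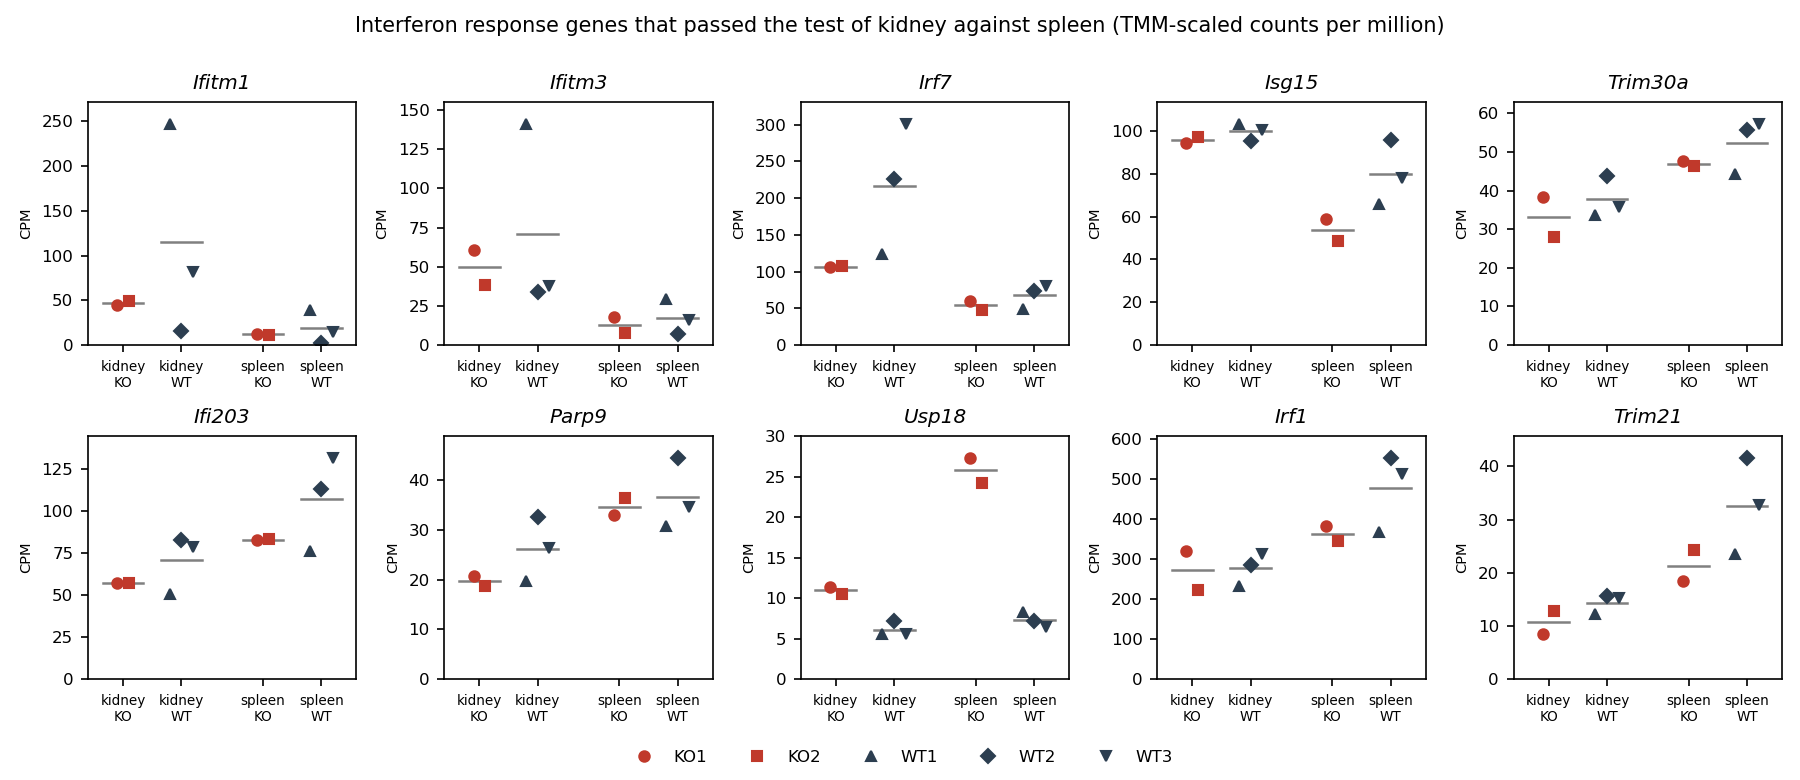
Level of the 10 interferon genes that passed the test of kidney against spleen, in TMM-scaled CPM, with a point for each mouse and a grey line at the group mean. Irf7 in all 5 kidneys (106 to 301 CPM) lay above all 5 spleens, Trim21 lay below in every mouse, and Usp18 was highest in the KO spleens.

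Among the transcription factors, Irf7 and Irf1 went opposite ways. Irf7, which amplifies the production of type I interferon, stood at 106 and 108 CPM in KO kidneys, 124, 227 and 301 CPM in WT kidneys, 60.5 and 48.1 CPM in KO spleens and 49.7, 73.1 and 80.6 CPM in WT spleens. All 5 kidneys lay above all 5 spleens, and the fitted log2 fold change of kidney over spleen was 1.41 (SE 0.25, edgeR adjusted p = 0.00337). Irf1, an activator that responds strongly to interferon gamma, stood at 321 and 223 CPM in KO kidneys, 234, 286 and 314 CPM in WT kidneys, 383 and 346 CPM in KO spleens and 369, 554 and 512 CPM in WT spleens. Every kidney lay below every spleen, with a log2 fold change of -0.64 (SE 0.15, edgeR adjusted p = 0.0140). Irf9 and Stat2, which are parts of the factor that binds the response element, averaged 46.0 ± 9.07 and 31.5 ± 3.58 CPM in kidney and 50.9 ± 2.67 and 28.6 ± 4.29 CPM in spleen (SD, n = 5 mice). Neither passed the test, with log2 fold changes of -0.14 for Irf9 and 0.14 for Stat2.

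The ubiquitin-like tag Isg15 and the protease that removes it also went opposite ways. Isg15 stood at 94.1 and 97.1 CPM in KO kidneys, 103, 95.4 and 100.4 CPM in WT kidneys, 58.9 and 48.5 CPM in KO spleens and 66.1, 95.5 and 77.9 CPM in WT spleens. Kidneys were close together, 4 of 5 mice were higher in kidney, and WT2 was level (log2 fold change 0.52, SE 0.13, edgeR adjusted p = 0.0181). Usp18, the protease that removes Isg15 and restrains the interferon receptor, stood at 11.4 and 10.53 CPM in KO kidneys, 5.5, 7.1 and 5.6 CPM in WT kidneys, 27.3 and 24.3 CPM in KO spleens and 8.3, 7.2 and 6.5 CPM in WT spleens. The kidney was below the spleen in all 5 mice, by more than 1 log2 unit in the KO mice and by 0.54 or less in the WT mice (log2 fold change -0.63, SE 0.20, edgeR adjusted p = 0.0447). Without naive-marker cells the Usp18 difference was -0.18 and not called (edgeR adjusted p = 0.775). Herc6, the main ligase for Isg15 in the mouse, averaged 26.8 ± 5.18 CPM in kidney and 32.2 ± 6.30 CPM in spleen (SD, n = 5) and did not pass the test.

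The Ifitm genes, a cluster of membrane proteins that hinder virus entry, had the widest gap between organs and also the widest spread between mice. Ifitm1 stood at 45.0 and 49.1 CPM in KO kidneys, 247, 16.3 and 81.9 CPM in WT kidneys, 12.8 and 11.2 CPM in KO spleens and 39.4, 1.9 and 15.1 CPM in WT spleens. In both organs WT1 was highest and WT2 lowest, yet within each mouse the kidney exceeded the spleen by 1.77 to 2.83 log2 units (log2 fold change 2.35, SE 0.74, edgeR adjusted p = 0.0456). Ifitm3 stood at 60.5 and 38.6 CPM in KO kidneys, 141, 33.6 and 37.5 CPM in WT kidneys, 18.0 and 8.0 CPM in KO spleens and 29.2, 7.0 and 16.1 CPM in WT spleens (log2 fold change 1.98, SE 0.49, edgeR adjusted p = 0.0169). Every kidney lay above every spleen for Ifitm3. Ifitm2 had the same pattern within mice, 1.29 to 1.84 log2 units higher in kidney in all 5, and did not pass without the mouse as a block (log2 fold change 1.61, SE 0.65, edgeR adjusted p = 0.103). B and plasma cell markers, Ighm and Jchain among them, were summed without TMM scaling. They held 55.7 and 55.6 CPM in KO kidneys and 647, 13.8 and 64.8 CPM in WT kidneys. In spleen they held 141 and 215 CPM in KO mice and 335, 21.9 and 31.3 CPM in WT mice. Here too WT1 was highest and WT2 lowest in each organ. Unlike the Ifitm genes, this sum was lower in kidney than in spleen in KO1, KO2 and WT2. Other marker lists had other orders. Myeloid markers were lowest in WT1 in kidney (21.4 CPM) and highest in WT1 in spleen (434 CPM). Kidney tubule markers were highest in WT3 in kidney (655 CPM). The part of any of these in the Ifitm values was not tested. Most of the sum in kidney WT1 was Jchain (636 CPM after TMM scaling), and most in the KO mice was Ighm (43.3 to 164 CPM). Without cells that held at least 2 UMIs of other cell types' markers the log2 fold change of Ifitm1 was 2.15 (edgeR adjusted p = 0.0640) and that of Ifitm3 was 2.16 (edgeR adjusted p = 0.0229). Without naive-marker cells neither was called, with 1.76 for Ifitm1 (edgeR adjusted p = 0.203) and 2.12 for Ifitm3 (edgeR adjusted p = 0.0627).

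The remaining called genes were lower in kidney. Trim21, a cytosolic antibody receptor and ubiquitin ligase, stood at 8.5 and 12.9 CPM in KO kidneys, 12.2, 15.6 and 15.2 CPM in WT kidneys, 18.4 and 24.3 CPM in KO spleens and 23.5, 41.6 and 32.8 CPM in WT spleens. All 5 kidneys lay below all 5 spleens (log2 fold change -1.15, SE 0.18, edgeR adjusted p = 0.00195). Ifi203, of a family of nuclear DNA-binding proteins, stood at 57.6 and 57.3 CPM in KO kidneys, 50.9, 82.9 and 78.7 CPM in WT kidneys, 82.6 and 83.3 CPM in KO spleens and 76.4, 113 and 132 CPM in WT spleens. The ranges of the organs overlapped, while within each mouse the kidney was lower (log2 fold change -0.57, SE 0.17, edgeR adjusted p = 0.0349). Parp9, an ADP-ribosyltransferase family member that works with Dtx3l, averaged 23.6 ± 5.78 CPM in kidney and 35.8 ± 5.23 CPM in spleen (SD, n = 5), with a log2 fold change of -0.59 (SE 0.16, edgeR adjusted p = 0.0254). Trim30a, a ubiquitin ligase induced by interferon, averaged 35.9 ± 5.80 CPM in kidney and 50.2 ± 5.86 CPM in spleen (SD, n = 5), with a log2 fold change of -0.46 (SE 0.12, edgeR adjusted p = 0.0197). Both were lower in kidney in all 5 mice. The RNA sensors did not pass the test: Ifih1 (MDA5) had a log2 fold change of -0.26, Ddx58 (RIG-I) of -0.28 and Dhx58 (LGP2) of -0.11. Bst2, or tetherin, which holds budding virus at the membrane, stood at 147 and 104 CPM in KO kidneys, 121, 128 and 124 CPM in WT kidneys, 170 and 113 CPM in KO spleens and 92.4, 98.8 and 93.3 CPM in WT spleens. It was lower in kidney in both KO mice and higher in all 3 WT mice, and the organ difference did not pass (log2 fold change 0.18, SE 0.15, edgeR adjusted p = 0.403).

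The other genes did not pass the test between organs. Ifit1, Ifit2 and Ifit3, which bind viral RNA and hinder its translation, averaged 14.2 ± 7.33, 8.67 ± 4.29 and 6.12 ± 3.94 CPM in kidney and 9.40 ± 2.21, 11.96 ± 2.96 and 3.58 ± 1.16 CPM in spleen (SD, n = 5). Ifit1 and Ifit3 were higher in kidney by more than 1 log2 unit in WT2 and WT3, while KO1, KO2 and WT1 lay between -0.35 and 0.37. Ifit3 and Ifit3b are near-identical copies whose reads may be split, so their single values are uncertain. Rsad2 (viperin), Oas1a, Oas3 (which feed RNase L), Eif2ak2 (the kinase PKR), Ifi44, Ifi204, Cmpk2 and Rtp4 also did not pass. Isg20 (an exonuclease for RNA), Ifi35, Zbp1 (a nucleic acid sensor), Xaf1, Samd9l, Slfn5 and Parp14 make up the rest of the tested genes, with log2 fold changes between -1.07 (Slfn5) and 0.62 (Samd9l).

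**Figure D2:**
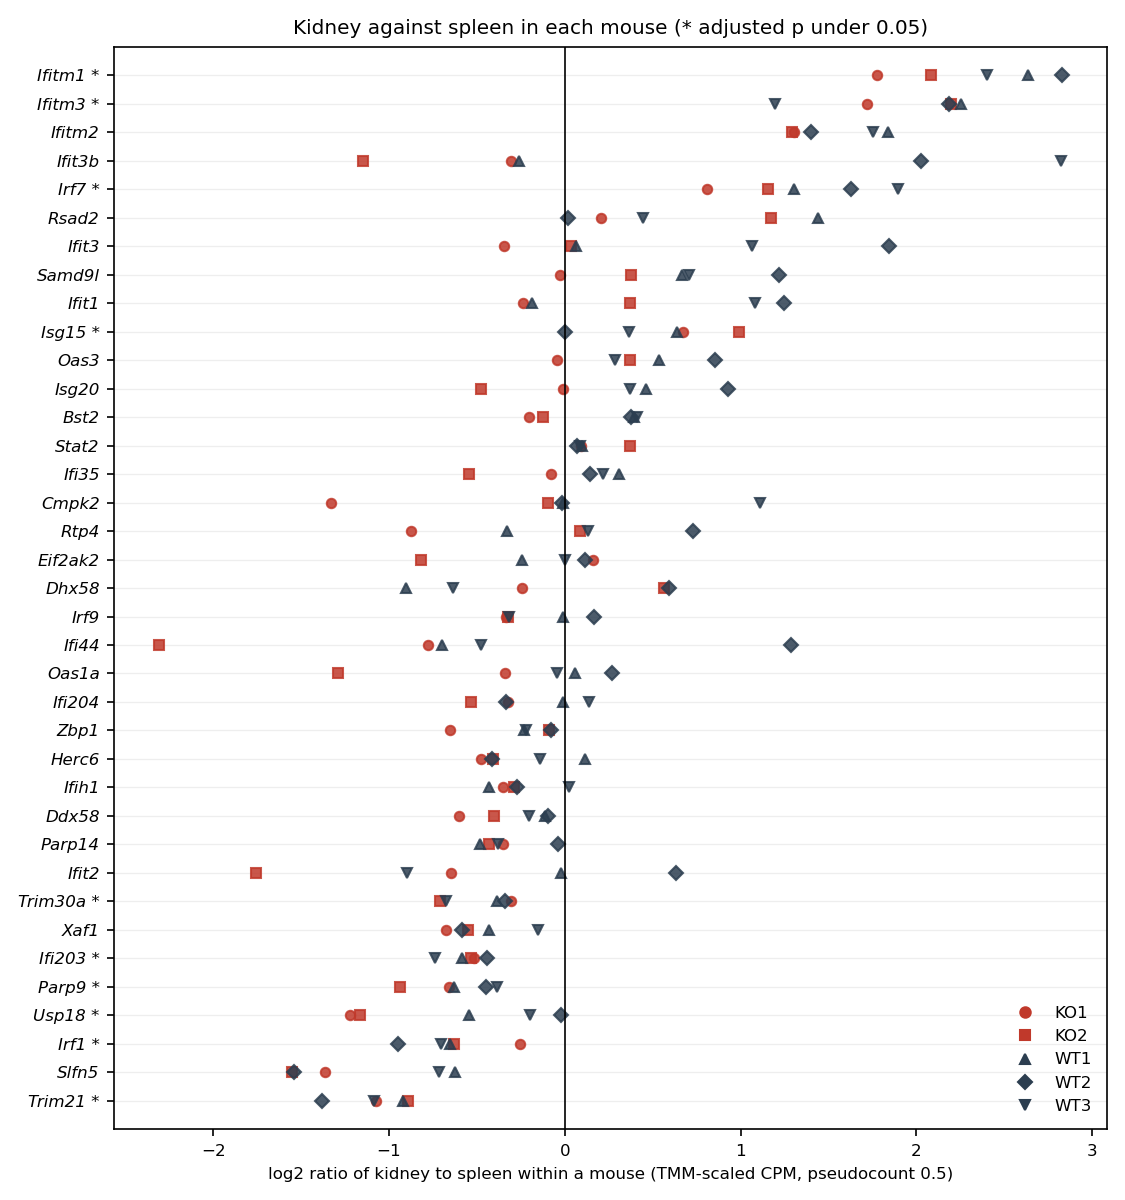
Log2 ratio of kidney to spleen within each mouse for the 37 tested interferon genes, from TMM-scaled CPM with a pseudocount of 0.5 and sorted by the fitted fold change, with a point for each mouse. The Ifitm genes and Irf7 lie to the right of 0 in all 5 mice, and Trim21, Slfn5, Irf1, Usp18, Parp9, Ifi203, Xaf1 and Trim30a lie to the left in all 5.

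Since each mouse gave both organs, the same test was run with the mouse as a block. It called 15 of the 37 genes, and 3715 of all genes against 2624 without the block. The 10 genes above were among them, joined by Ifitm2 and Samd9l (higher in kidney) and Slfn5, Xaf1 and Parp14 (lower). With the block Ifitm1 had an adjusted p of 1.41e-05, Irf7 of 0.000191 and Trim21 of 0.000187 (edgeR quasi-likelihood). Counting mice alone, 6 genes were higher in kidney in all 5 mice (Ifitm1, Ifitm2, Ifitm3, Irf7, Stat2 and Rsad2), 16.2% of those tested against 19.0% of all genes. A further 11 were lower in all 5 (Trim21, Irf1, Slfn5, Usp18, Parp9, Ifi203, Xaf1, Trim30a, Parp14, Ddx58 and Zbp1), 29.7% of those tested against 19.5% of all genes. Irf7 and Trim21 kept their calls in each of 14 other settings tried, and Usp18 kept its call in 6 of them. The number of called genes was 3 without KO1 or without KO2 (Trim21, Irf1 and Irf7 each time), 4 without WT3, 9 without WT2 and 13 without WT1.

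Receptor and signalling genes also differed between organs, in both directions. Of 112 other interferon pathway genes found in the matrices, 96 were tested between organs, and 15 were higher and 16 lower in kidney, 32.3% in all against 21.7% of all genes. Among the 67 tested genes of this list that are themselves interferon-induced, 18 were called (26.9%). Among the 5 receptor chains 2 were called, and among the 6 kinases and STATs 5 were. No test of these shares against each other was made. Of the ligands, Ifnb1, Ifna2, Ifne, Ifnl2 and Ifnl3 had 0 UMIs and Ifna4 and Ifnk had 3 and 1 over all sums. Only Ifng was testable, at 219 and 197 CPM in KO kidneys, 317, 326 and 307 CPM in WT kidneys, 99.7 and 125 CPM in KO spleens and 233, 684 and 800 CPM in WT spleens. Its organ difference did not pass (log2 fold change -0.18, edgeR adjusted p = 0.776).

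A chain of the gamma receptor and a chain of the type I receptor were higher in kidney. Ifngr1, of the interferon gamma receptor, stood at 927 and 974 CPM in KO kidneys, 895, 765 and 773 CPM in WT kidneys, 190 and 221 CPM in KO spleens and 132, 128 and 146 CPM in WT spleens (log2 fold change 2.43, SE 0.10, edgeR adjusted p = 1.13e-06). Ifnar1, of the type I receptor, stood at 171 and 173 CPM in KO kidneys, 137, 144 and 139 CPM in WT kidneys, 80.6 and 97.1 CPM in KO spleens and 63.1, 79.9 and 73.6 CPM in WT spleens (log2 fold change 0.96, SE 0.08, edgeR adjusted p = 7.56e-05). For both genes every kidney lay above every spleen. The partner chains Ifnar2 (log2 fold change 0.20) and Ifngr2 (0.80) and the shared chain Il10rb (-0.15) did not pass, and Ifnlr1, of the lambda receptor, had 2 UMIs over all sums.

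Kinases and STATs split as well. Jak2, the kinase of the gamma receptor, averaged 394 and 367 CPM in KO and WT kidneys against 182 and 197 CPM in KO and WT spleens (log2 fold change 0.98, SE 0.14, edgeR adjusted p = 0.00131). Stat4 (log2 fold change 1.57, SE 0.14) and Stat3 (0.93, SE 0.12) were higher in kidney, with edgeR adjusted p = 7.56e-05 and 0.000535. Jak1 was slightly higher (0.25, edgeR adjusted p = 0.0462) and Tyk2 was lower (-0.47, edgeR adjusted p = 0.0377). The feedback inhibitor Socs3 (log2 fold change 1.13, SE 0.19, edgeR adjusted p = 0.00273) and the inhibitory ligand Cd274 (1.19, SE 0.27, edgeR adjusted p = 0.0120) were also higher in kidney. Tmem173, which encodes the DNA sensing adaptor STING, was lower, at 38.0 and 35.1 CPM in KO kidneys, 49.3, 32.8 and 37.2 CPM in WT kidneys, 75.8 and 97.7 CPM in KO spleens and 90.2, 62.4 and 54.5 CPM in WT spleens (log2 fold change -0.96, SE 0.18, edgeR adjusted p = 0.00450).

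**Figure D3:**
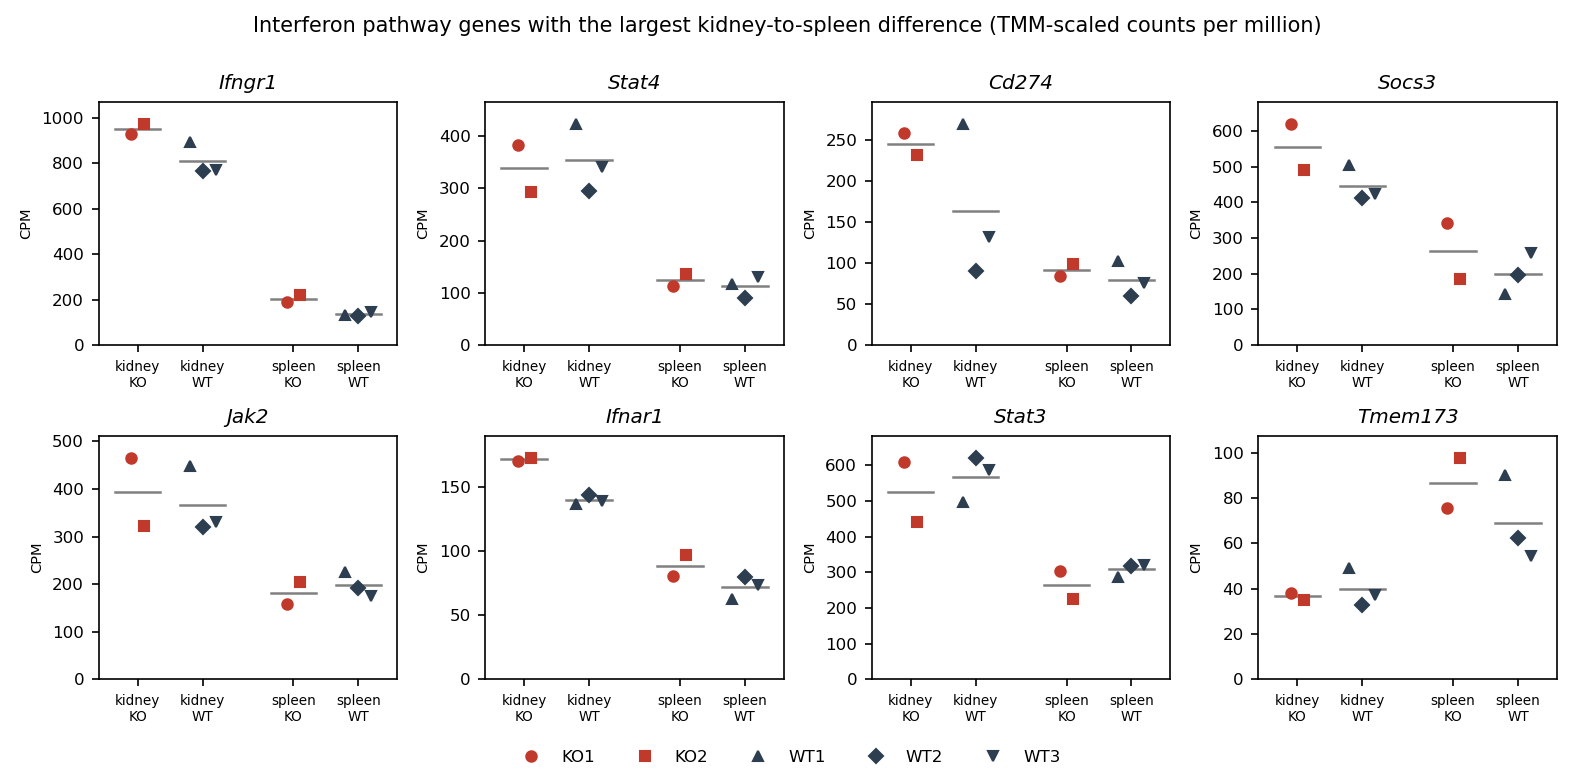
Level of the 8 interferon pathway genes with the largest called difference between organs, in TMM-scaled CPM, with a point for each mouse and a grey line at the group mean. Ifngr1 ran from 765 to 974 CPM in kidney and from 128 to 221 CPM in spleen, and Tmem173 was lower in kidney than in spleen in all 5 mice.

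The second comparison set KO against WT within the kidney. No gene passed the test there, among the interferon genes (35 tested) or among all 10486 genes (edgeR, 0.0% called), so the values that follow are descriptions. At an unadjusted p under 0.05 there were 5 interferon genes (14.3%) and 966 genes in all (9.21%). Of the 5, 4 were lower in KO kidneys (11.4%, against 4.14% of all genes) and 1 higher (2.86%, against 5.07%). DESeq2 called 58 genes and no interferon gene. Most fitted values were below 0: 7 of the 35 (20.0%) lay above it, against 49.3% of all genes, and the median log2 fold change was -0.39, against -0.01 over all genes tested. In 9 genes both KO mice lay below all 3 WT mice (Ifi204, Ddx58, Herc6, Isg20, Irf7, Xaf1, Ifi35, Irf9 and Ifit3, 25.7% against 17.6% of all genes), and in Usp18 both lay above (2.86% against 12.9%). Rsad2, Oasl1, Oasl2, Oas2 and Ifi44 were too low to test. The naive-marker shares given above, higher in both KO mice than in any WT mouse, moved with these differences. So did the CD8 markers Cd8a and Cd8b1, which with the NK markers Ncr1 and Klrb1c summed to 176 and 163 CPM in KO kidneys and 41.4, 33.5 and 25.3 CPM in WT kidneys, without TMM scaling, the NK markers being at 0 to 0.340 CPM. The part of either in the result was not tested. Without cells that held other types' markers, no interferon gene was called in kidney either (edgeR, 6 at an unadjusted p under 0.05).

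The 5 genes with the smallest p in kidney were Isg20, Ifi35, Usp18, Irf7 and Ddx58. Isg20 stood at 42.1 and 29.2 CPM in KO kidneys against 56.2, 67.1 and 51.5 CPM in WT kidneys (log2 fold change -0.63, SE 0.20, edgeR adjusted p = 0.467). Ifi35, which forms a complex with Nmi, stood at 50.2 and 36.3 CPM in KO kidneys against 58.6, 71.3 and 68.8 CPM in WT kidneys (log2 fold change -0.54, SE 0.18, edgeR adjusted p = 0.467). In both genes the KO mice lay below all WT mice. The Irf7 values given above had a log2 fold change of -0.98 (SE 0.36, edgeR adjusted p = 0.496), with WT1 at 124 CPM next to the KO mice and WT2 and WT3 far higher. Ddx58 stood at 33.9 and 36.3 CPM in KO kidneys against 40.9, 52.5 and 54.4 CPM in WT kidneys (log2 fold change -0.46, SE 0.18, edgeR adjusted p = 0.523). The KO mice again lay below all WT mice. Usp18 was the exception in direction, with a log2 fold change of 0.89 (SE 0.30, edgeR adjusted p = 0.467). Of the 5 genes with the most UMIs, the other members were close to 0 or below: Irf1 had 0.02, Bst2 0.07, Isg15 -0.03 and Ifi203 -0.26 (log2 fold change). Leaving out WT1 gave 739 called genes and 6 interferon genes, Irf7 (-1.26), Xaf1 (-0.91), Ifit1 (-1.15), Ifit3b (-3.10) and Samd9l (-0.83) lower in KO mice and Slfn5 (2.48) higher, while leaving out any other mouse left none.

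In the spleen Usp18 was the single interferon gene that passed the test between genotypes. It was 3.54-fold higher in KO mice (log2 fold change 1.83, SE 0.18, edgeR adjusted p = 0.0352), with 27.3 and 24.3 CPM in KO spleens against 8.3, 7.2 and 6.5 CPM in WT spleens. The KO values lay far above all WT values, whose own spread was small. That is 1 of 36 tested interferon genes (2.78%), against 0.239% of all 11698 genes tested (28 genes, 0.205% higher and 0.0342% lower in KO spleens). At an unadjusted p under 0.05 there were 5 (13.9%, against 16.9%), 4 higher (11.1%, against 8.71%) and Isg15 lower (2.78%, against 8.16%). The fitted values of 13 of the 36 genes lay above 0 (36.1%, against 49.3% of all genes), and their median was -0.06, against -0.01. Both KO mice lay above all 3 WT mice in 8 genes (Usp18, Slfn5, Cmpk2, Ifi44, Oas1a, Rtp4, Bst2 and Isg20, 22.2% against 18.5% of all genes) and below in Isg15 (2.78% against 20.6%). Ifit3b, Oasl1, Oasl2 and Oas2 were too low to test.

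The Usp18 call depended on the mice and cells included. It was lost on leaving out KO1, KO2, WT2 or WT3, with edgeR adjusted p between 0.138 and 0.713 and log2 fold changes between 1.73 and 1.90, and it held without WT1 (1.93, edgeR adjusted p = 0.00133). DESeq2 also called it (adjusted p = 1.46e-07). The CD8 and NK markers summed to 27.5 and 63.0 CPM in KO spleens and 18.3, 8.04 and 13.5 CPM in WT spleens, and without cells that held other types' markers the call held (2.06, edgeR adjusted p = 0.0150). Split by naive markers, Usp18 in naive-marker cells stood at 29.7 and 29.8 CPM (without TMM scaling) in KO spleens and 11.8, 19.0 and 9.67 CPM in WT spleens. In the remaining cells it stood at 21.9 and 15.2 CPM in KO spleens and 6.41, 3.34 and 5.12 CPM in WT spleens. The KO mice lay above the WT mice in both kinds of cell, and naive-marker cells held more Usp18 in each of these spleens. In the fit on naive-marker cells alone the log2 fold change was 1.36 (edgeR adjusted p = 0.0474), and without them it was 1.77 and not called (edgeR adjusted p = 0.585).

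Slfn5, a member of a family that restrains T cell growth, had the next largest fitted value in spleen, at 30.3 and 31.9 CPM in KO spleens against 17.8, 4.9 and 5.1 CPM in WT spleens (log2 fold change 1.70, SE 0.57, edgeR adjusted p = 0.220). WT1 lay between the KO mice and the other WT mice. In naive-marker cells alone Slfn5 was called (edgeR adjusted p = 0.0186). Bst2 had a log2 fold change of 0.60 (SE 0.19, edgeR adjusted p = 0.199), with KO1 at 170 CPM above the rest. Isg15 had one of -0.55 (SE 0.19, edgeR adjusted p = 0.236), Irf1 of -0.37 (0.391), Ifi203 of -0.35 (0.514) and Irf7 of -0.30 (0.577, edgeR adjusted p in each bracket), and none was called. Leaving out WT1 gave 2254 called genes and 8 interferon genes, with Usp18, Slfn5 and Oas1a higher and Trim21, Xaf1, Isg15, Ifi203 and Irf1 lower in KO spleens.

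**Figure D4:**
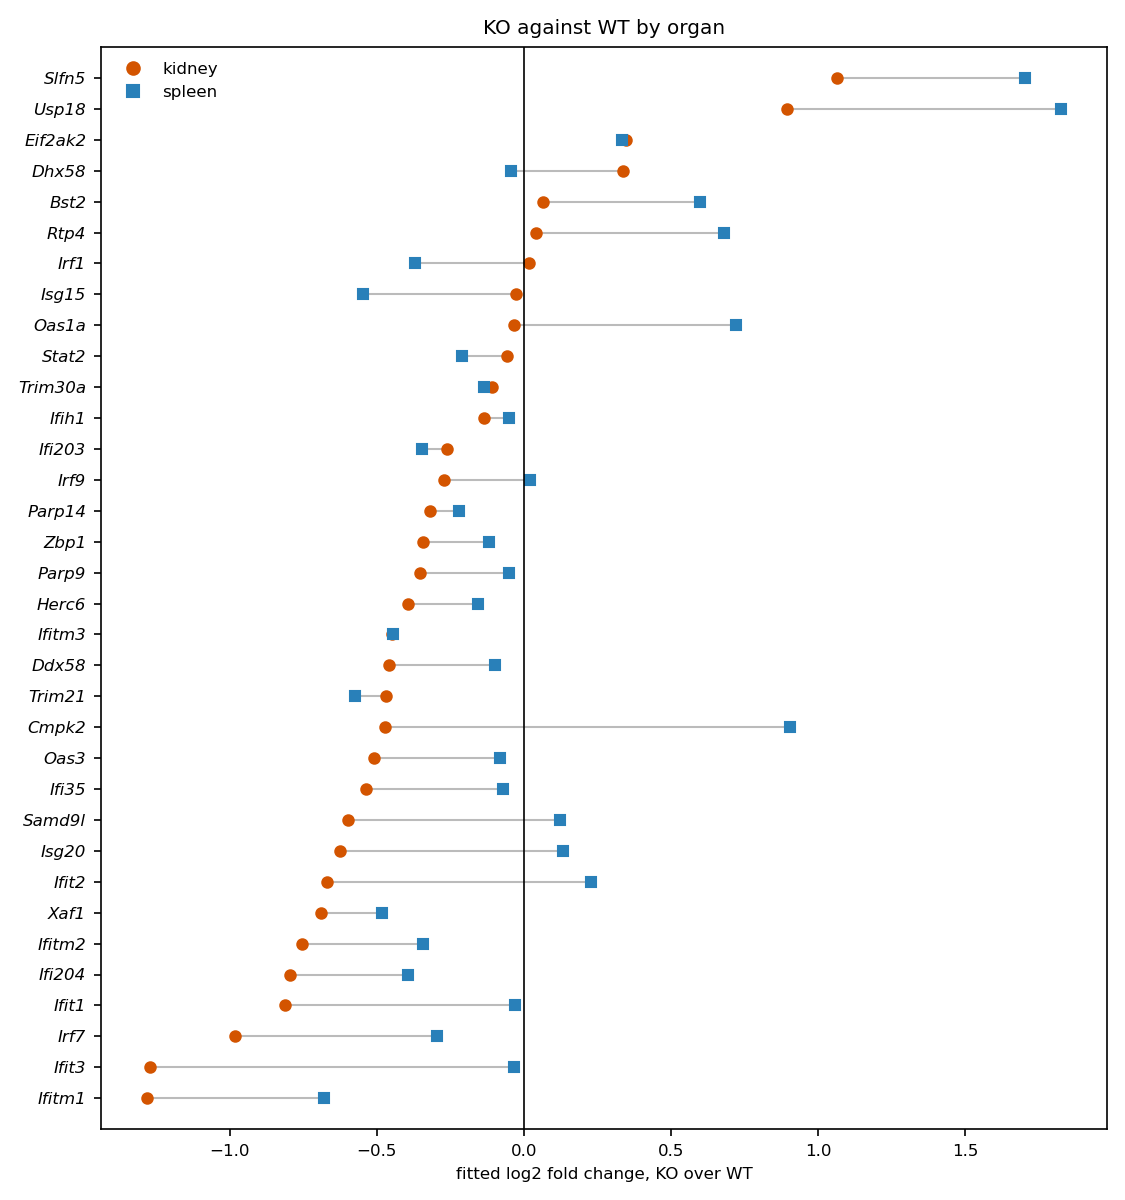
Fitted log2 fold change of KO over WT in kidney (circles) and spleen (squares) for the 34 interferon genes tested in both organs, sorted by the kidney value. Usp18 and Slfn5 lie furthest to the right in both organs, and Usp18 in spleen (1.83) is the 1 point that passed the test.

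No interferon gene passed the test of whether the KO effect differed between organs (37 tested; edgeR called 0 of 12072 genes, or 0.0%, and DESeq2 6 genes and no interferon gene). At an unadjusted p under 0.05 there were 2 interferon genes (5.41%, against 4.03% of all genes), Usp18 (log2 difference -0.95, SE 0.30) and Isg20 (-0.78, SE 0.24), both below 0 (2.2% of all genes were) and each with an edgeR adjusted p of 1.0. The next by p were Isg15 (0.50), Bst2 (-0.55) and Cmpk2 (-1.39). The median over the 37 genes was -0.42, against -0.01 over all genes tested, and 7 (18.9%, against 49.2%) lay above 0. With the mouse as a block 4 genes were called, none of them an interferon gene. None of the other pathway genes passed between genotypes in kidney (94 tested), in spleen (95 tested) or in the difference (96 tested). The gene with the widest gap among the receptors was Ifngr2, the signalling chain of the gamma receptor, at 58.3 and 78.4 CPM in KO kidneys against 17.3, 4.25 and 6.73 CPM in WT kidneys, and at 55.5 and 51.7 CPM in KO spleens against 8.04, 0.467 and 2.56 CPM in WT spleens. KO and WT values did not overlap in either organ, and neither difference passed (edgeR adjusted p = 0.421 in kidney and 0.101 in spleen).

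Summed over all 40 genes, each cell's interferon UMIs per 10000 averaged 16.2 ± 2.44 in kidney and 17.4 ± 1.66 in spleen (SD, n = 5 mice). The mean per 10000 UMIs of a cell was 14.3 and 13.1 in KO kidneys, 16.9, 17.4 and 19.1 in WT kidneys, 16.8 and 15.2 in KO spleens and 17.0, 19.5 and 18.3 in WT spleens. The KO mice lay below the WT mice in both organs, with means of 13.7 ± 0.894 (SD, n = 2) against 17.8 ± 1.18 (SD, n = 3) in kidney and 15.96 ± 1.12 (SD, n = 2) against 18.3 ± 1.27 (SD, n = 3) in spleen. The KO minus WT gap in spleen was -2.33, and -0.24 without the 5 genes with the most UMIs (Irf1, Bst2, Irf7, Isg15 and Ifi203), which held 46.2% to 54.5% of the summed spleen CPM of these genes. Without naive-marker cells the gap was -1.90 in kidney and -0.23 in spleen. In spleen the KO mice then stood at 20.5 and 16.7 and the WT mice at 17.8, 19.9 and 18.8, so KO1 lay above all WT mice. No test was made of this sum. Summed over each block, the 40 genes held 1461 and 1260 CPM in KO kidneys and 1854, 1710 and 1848 CPM in WT kidneys. In spleen they held 1562 and 1373 CPM in KO mice and 1415, 1715 and 1704 CPM in WT mice. By block sum KO1 lay above WT1 in spleen, and WT1 was higher in kidney than in spleen, unlike in the per-cell means.

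Cells with at least 5 interferon UMIs, called rich here, were found in every mouse and organ. Their share rises with the mean per-cell sum, so it is not a separate result. The share that random counting alone would give was not computed, so these cells are not shown to be a distinct population. After each cell was thinned to 1500 UMIs, cells with at least 5 interferon UMIs made up 9.83% (95% Clopper-Pearson interval 7.71 to 12.3) and 9.95% (6.27 to 14.8) of KO kidney cells and 13.9% (12.2 to 15.7), 14.5% (12.7 to 16.4) and 17.6% (15.1 to 20.2) of WT kidney cells. In spleen they made up 13.9% (12.1 to 15.96) and 10.2% (8.73 to 11.8) of KO cells and 14.2% (12.8 to 15.7), 19.0% (16.5 to 21.7) and 16.1% (14.6 to 17.8) of WT cells. Both KO mice lay below all WT mice in each organ, though some intervals overlapped. In kidney the interval of KO1 overlapped that of WT1, and the interval of KO2 overlapped those of WT1 and WT2. In spleen the interval of KO1 overlapped those of WT1 and WT3. The order of KO and WT mice in spleen depended on the minimum and on the genes counted. At a minimum of 8 UMIs the spleen shares were 2.91% and 1.64% in KO mice and 3.20%, 2.46% and 2.71% in WT mice. Without the 5 genes with the most UMIs they were 3.62% and 2.35% in KO mice and 3.69%, 2.35% and 2.37% in WT mice. KO1 then lay above WT2 and WT3 both times. The intervals cover counting error only. Without thinning the shares were 45.9% and 42.0% in KO kidneys, 46.3%, 55.1% and 51.5% in WT kidneys, 54.6% and 51.7% in KO spleens and 53.7%, 69.5% and 59.3% in WT spleens. Between 8 and 107 cells of a block were too shallow to thin.

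Interferon genes differed in how far they were raised in cells rich in the other interferon genes. For each gene, cells with at least 5 thinned UMIs of the other genes were set against cells with 0 or 1. Ifit3 averaged 27.5 CPM of the thinned UMIs in the rich cells and 2.21 CPM in the poor cells of kidney, and 20.4 and 1.40 CPM in those of spleen. That is 12.4-fold in kidney and 14.5-fold in spleen, from 24 and 7 UMIs in kidney and 38 and 5 in spleen, so the ratio is loosely set. Ifit1 was 8.43-fold higher in rich cells in kidney and 10.9-fold in spleen, Rtp4 5.81-fold and 5.00-fold, and Usp18 5.83-fold and 3.03-fold, each in all 5 mice of both organs. Irf1 was 1.37-fold higher in kidney and 1.11-fold in spleen. Irf7 was 1.14-fold higher in rich cells in kidney (3 of 5 mice) and 2.10-fold in spleen (5 of 5 mice), and of its thinned kidney UMIs 181 lay in rich and 635 in poor cells. Over the 34 genes with enough counts the median ratio was 2.33 in kidney and 2.12 in spleen.

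The ratios of the Ifitm genes depended on which genes chose the rich cells. When all other genes chose the rich cells, Ifitm1 was 16.5-fold higher in them in kidney and 14.0-fold in spleen. When Ifitm1, Ifitm2 and Ifitm3 were left out of the choice, a setting added after seeing the data, the ratio of Ifitm1 was 1.07 in kidney and 0.479 in spleen, that of Ifitm2 0.406 and 0.689, and that of Ifitm3 1.06 and 1.03. With that choice Ifit1 stood at 11.1-fold in kidney and 11.3-fold in spleen, and Ifit3 at 16.6-fold and 16.4-fold. Usp18 stood at 7.48-fold and 3.35-fold, Rtp4 at 7.13-fold and 5.31-fold, and Isg15 at 3.90-fold and 3.02-fold. Each of these 5 ratios was higher than with all other genes in the choice. Averaged over mice, the Ifitm genes were enriched in rich cells when they were among the genes that chose those cells. When they were not, the ratio of the means was at most 1.07, and values of single mice, many from few UMIs, varied. Kidney Ifitm1 in rich and poor cells then stood at 113 and 18.1 CPM in KO1, 41.7 and 6.06 in KO2 and 30.9 and 1.23 in WT2. In WT1 it stood at 95.2 and 198 CPM, and in WT3 at 37.8 and 76.5 CPM. Over all 5 mice these kidney values rest on 40 UMIs in rich and 307 in poor cells. The values of a single mouse are therefore loosely set, above all in KO2, the smallest block. In spleen Ifitm1 was higher in rich cells in 1 of 5 mice, from 15 UMIs in rich and 104 in poor cells.

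**Figure D5:**
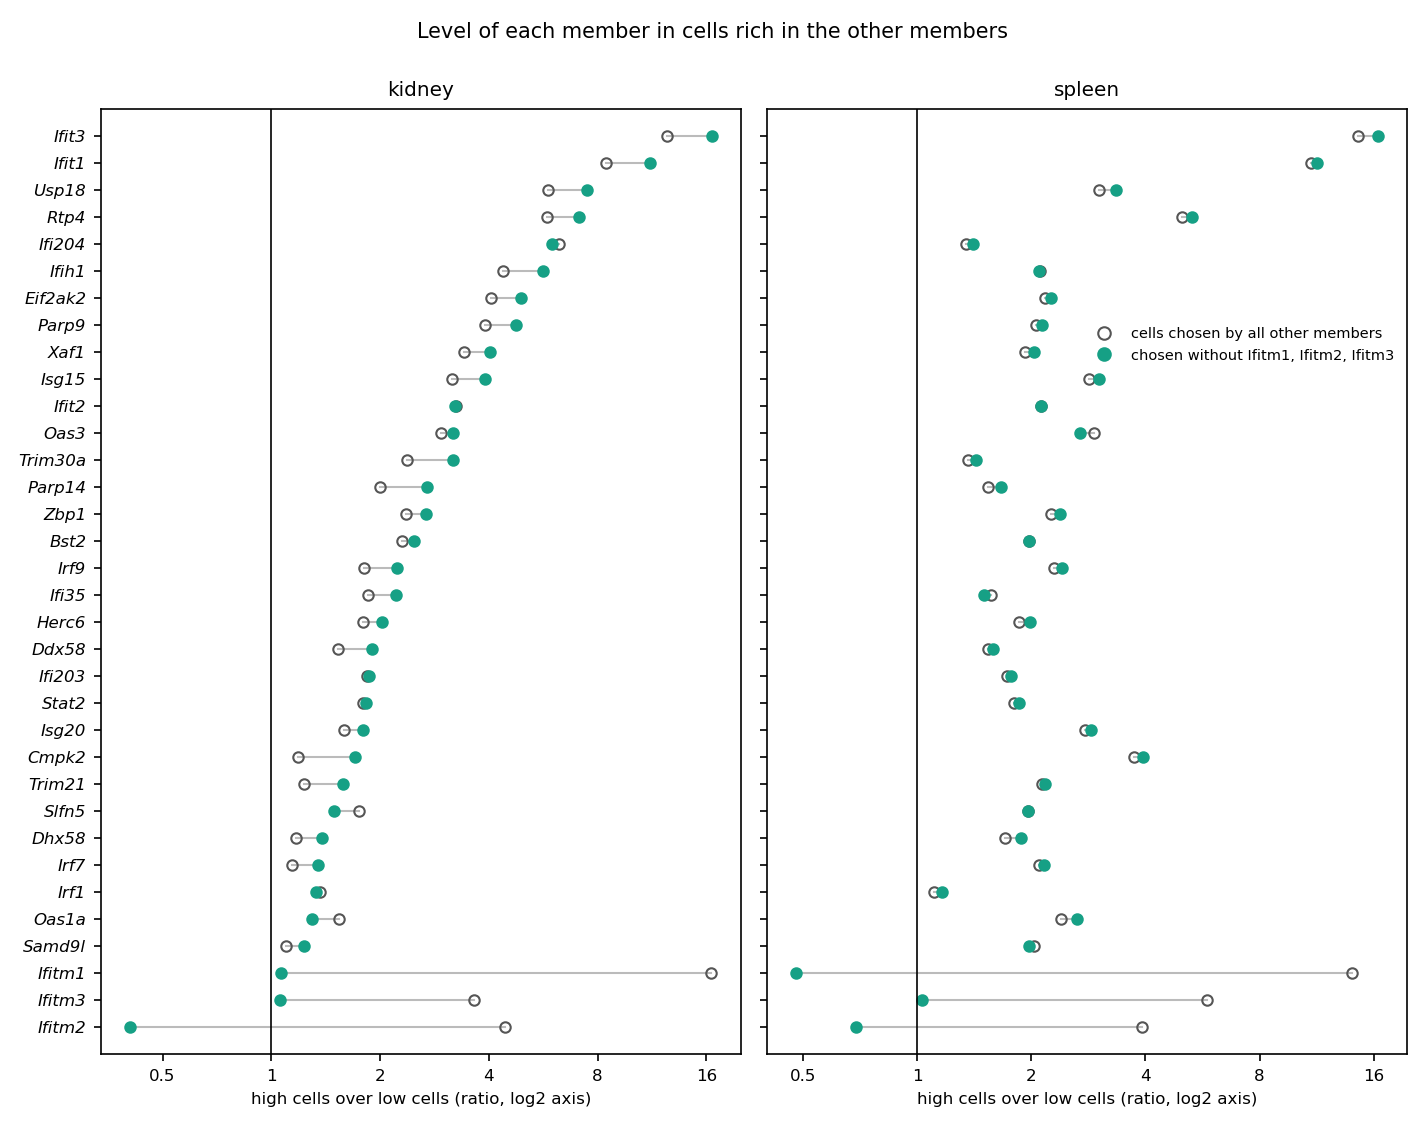
Ratio of each gene's level in cells rich in the other interferon genes to its level in cells poor in them, in kidney and spleen, on a log2 axis. Open circles use all other genes to choose the cells and filled circles leave out Ifitm1, Ifitm2 and Ifitm3, with which the Ifitm ratios lie between 0.406 and 1.07 while Ifit3 and Ifit1 lie above 11.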

How the data were processed

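The authors deposited 1 matrix of UMI counts per organ, whole numbers with no normalization, and a key of antibody tags. The submitters' processing notes name the mm10 (GRCm38) genome, Cell Ranger 7.1.0 and Seurat 5.0.1, with no other settings. Barcode blocks with first-day tags (10 of 18 blocks, each led by 1 tag in at least 99.5% of cells) were given to the mouse and organ of that tag. Tag numbers were joined to the key by its order. The deposited data do not pair tag numbers with tag sequences directly, so the assignment of mice rests on this order. Of 13368 first-day cells, 13337 with at least 200 genes and under 10% mitochondrial UMIs were kept, 13 cells led by another tag being left out. No barcode stood in more than 1 first-day block. Doublets were handled by tags alone, with no doublet caller, and no cell cluster was removed. Counts were summed per mouse and organ and compared in R 4.3.3 with edgeR 4.0.16 (quasi-likelihood, TMM, filterByExpr, Benjamini-Hochberg at 0.05 over all genes). Between genotypes within an organ, the p-values measure the spread among 2 KO and 3 WT mice. The fits between organs and of the difference took the 10 sums as separate units, except where the mouse was a block. DESeq2 1.42.0, other size factors, filters and cell choices, the mouse as a block and leaving out each mouse were alternatives.

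Each mouse gave both organs, so the mouse pairs the sums by design. The correlation of kidney and spleen deviations from the group means was 0.02 in both KO mice and 0.63, 0.58 and 0.24 in WT1, WT2 and WT3. Sample values are given for genes called in a comparison, up to 12, and for the 5 of highest mean CPM. Where none was called, the 5 of smallest p are named. Of the pathway list, the 8 called genes of largest fold change, the receptors, Jak1 and Tyk2 are named, and Ifngr2 between genotypes and Ifng were named after their values were seen. SE was taken as the absolute log2 fold change divided by the square root of the quasi-likelihood F statistic. It is thus approximate and need not match the p-value. SE is not given for log2 fold changes within 0.05 of 0. For thinning, UMIs were drawn without replacement with a fixed seed. The fit was run on simulated independent counts with a fixed dispersion and no mouse effect. That run checks the code and does not cover sums that share a mouse or a mouse that stands apart, such as WT1. The genes, the pathway list and the marker lists were chosen with earlier results of these data known. T cell receptor sequences were not analysed here, and some items are not reported here.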

Additional observations from a re-analysis of the deposited data

Results flagged for a closer look

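Isg20 had opposite differences in the organs. Both KO mice lay below all WT mice in kidney (42.1 and 29.2 CPM against 56.2, 67.1 and 51.5 CPM) and above all WT mice in spleen (42.3 and 40.95 CPM against 40.6, 35.03 and 39.7 CPM). Seen within mice, it was lower in kidney than in spleen in both KO mice and higher in all 3 WT mice. The test of this difference gave a log2 value of -0.78 (edgeR adjusted p = 1.0), so it did not pass over all genes. The spleen values of the genotypes were close, with KO2 and WT1 less than 1 CPM apart.

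Bst2 was lower in kidney than in spleen in both KO mice and higher in all 3 WT mice, with a tested log2 difference of -0.55 (edgeR adjusted p = 1.0). Ifi35 had the same pattern, with -0.49 (edgeR adjusted p = 1.0).

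The second-day cells of the tag key, 2399 distinct barcodes that stand under several mice and both organs (6 blocks of identical gene counts), could be tied to no single mouse and were left out of all comparisons. By library total, 5 of the 40 genes were higher in them than in all 6 first-day WT sums. These were Rsad2 at 7.60 CPM, Usp18 at 16.9, Oasl1 at 2.19, Bst2 at 150 and Rtp4 at 28.3 CPM, while 4 genes (Isg15, Isg20, Oasl2 and Ifi35) were lower than all WT sums. Over the 37 genes tested between organs, 4 lay above all WT sums (10.8%, against 12.7% of all 12072 genes) and 3 below (8.11%, against 21.2%), so the count above is close to that of any gene. Rsad2 and Oasl1 were also above both KO mice in each organ, where the highest first-day values were 2.30 and 0.974 CPM. With 1 set of cells of unsettled origin, no test was made.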

How the results depend on the processing

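None of the 10 interferon genes called between organs, nor Usp18 in spleen, changed direction in any setting. Among all tested interferon genes the fitted fold change had both signs over the settings for 11 of 37 between organs, 17 of 35 between genotypes in kidney, 17 of 36 in spleen and 13 of 37 for the difference. Such genes were Ifit1 between organs (-0.11 to 0.85) and Irf1 (-0.29 to 0.23) and Bst2 (-0.23 to 0.26) between genotypes in kidney. Irf7, Trim21, Ifngr1, Ifnar1, Jak2, Stat3, Stat4, Socs3 and Tmem173 kept their calls between organs in all 14 settings, and Jak1 and Tyk2 kept theirs in 7. Leaving out 1 mouse gave 3 to 13 called interferon genes between organs, 0 to 6 between genotypes in kidney and 0 to 8 in spleen. In spleen none was called without naive-marker cells and 2 in naive-marker cells alone, a setting added after the data were seen. With the mouse as a block 15 were called between organs and 0 for the difference of the KO effect.

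Counts over all genes moved more. In spleen 28 were called by edgeR, 697 by DESeq2, 340 without the filter on low counts, 204 without cells carrying markers of other types, 386 in naive-marker cells alone, 0 without naive-marker cells and 2254 without WT1. In kidney the count was 0 by edgeR, 58 by DESeq2, 26 without the filter, 1 with the stricter cell filter or without cycling-marker cells, and 739 without WT1. Between organs it was 2624, with 1350 to 2696 when a mouse was left out. For the difference it was 0, with 6 by DESeq2, 4 with the block and 1 without WT1.

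The KO minus WT gap in the per-cell sum was -4.10 in kidney and -2.33 in spleen. It was -2.47 and -0.24 without the 5 genes with the most UMIs, and -1.90 and -0.23 without naive-marker cells. For the share of cells rich in interferon UMIs, kidney minus spleen was -1.55 points, and KO minus WT was -5.43 points in kidney and -4.37 in spleen. These 3 differences were -7.90, -7.80 and -9.34 at a minimum of 3 UMIs, 1.16, -2.85 and -0.52 at 8 UMIs, -5.50, -7.92 and -9.16 with cells thinned to 2500 UMIs, and 1.44, -2.15 and 0.19 without the 5 genes. Fewer genes counted or a higher minimum leaves fewer cells over it by construction. The cause of the other shifts was not tested. Kidney KO2 was the smallest block, with 219 cells, and its part in the precision in kidney was not tested.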
